A study of Mus musculus with 2 samples.

Results

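The genes described here are 9 genes that make, break down or bind hyaluronan: the synthases Has1, Has2 and Has3, the depolymerising genes Cemip, Hyal1 and Hyal2, the receptor Cd44 and the binding partners Tnfaip6 and Itih5. They were chosen by name, and all 9 were present among the 32285 features of both single-cell matrices. They were followed in 2 libraries of wild-type (WT) mouse knee joint cartilage, 1 after surgical destabilisation of the medial meniscus (DMM), which leads to osteoarthritis in mice, and 1 after sham surgery. Each library was pooled from 3 mice, and the age of the mice and the time after surgery are not given in the labels. Attached soft tissue was taken off the long bones, cells were freed by digestion with type I collagenase, Dispase II and DNase I, and viable cells (Calcein AM positive, DAPI negative) that lacked CD45, Ter119 and CD31 were sorted and captured with a 10x Genomics 3' kit. Expression was counted as unique molecular identifiers (UMIs), each a tag of 1 captured transcript, and summed per cell set to CPM (the gene's UMIs per 1000000 UMIs of the set).

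Hyaluronan is a long unsulfated sugar chain that HAS enzymes spin out at the cell membrane from UDP-glucuronic acid and UDP-N-acetylglucosamine. In cartilage it holds aggrecan in large aggregates, and in synovial fluid it comes mainly from synovial lining fibroblasts and acts as a lubricant. Hyaluronidases and CEMIP shorten the chain, CD44 anchors it to cells, and TSG-6 (the product of Tnfaip6) moves the heavy chains of inter-alpha-trypsin inhibitor onto it. RNA was measured here, and neither the chain nor its length was.

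Filtering left 9529 DMM cells (median 7859 UMIs) and 9529 sham cells (median 8064 UMIs), and 17 barcodes occurred among the kept cells of both. The cells formed 26 clusters, of which 19 were connective tissue with 8383 DMM and 7619 sham cells. The labels call the cells superficial, but the markers of that zone (Prg4, Erg, Creb5, Abi3bp, Cilp2, Cilp) named 1 cluster, led by Casr, Moxd1 and Chst3, with 677 DMM and 898 sham cells. Other clusters were chondrocyte-like (830 DMM and 1072 sham cells), synovial lining-like (828 and 323), fibroblast-like (808 and 1182) and tendon or ligament-like (379 and 241). The unnamed cluster led by Serpina1e, Chst5 and Hmga2 (972 and 671) matched the superficial zone list best but was left unnamed, since it had the hypertrophic marker Col10a1 among its leading genes. The cluster led by Wif1, Msmp and Frzb (480 and 562) also matched that list best and was left unnamed by the naming rule. Despite the sort, 790 DMM and 1236 sham cells were erythroid-like, and they give the level at which RNA from other cells appears for Has1, Has2, Cemip, Tnfaip6 and Itih5, but not for Cd44, Hyal1 and Hyal2. With 1 library per group no test between DMM and sham was possible, and intervals in square brackets are 95% intervals of counting error, which leave out differences between cells, mice and preparations.

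The synthase Has1 was highest in fibroblast-like and synovial lining-like cells and low in chondrocyte-like cells. Lining-like cells held 906 [887, 926] CPM in the DMM library and 1039.8 [1006, 1074] CPM in the sham library. Fibroblast-like cells held 706 [683, 729] CPM in the DMM library and 1318 [1294, 1342] CPM in the sham library, against 12.2 CPM in DMM and 13.8 CPM in sham in chondrocyte-like cells. The order at the top differed between the libraries. In DMM the lining-like cluster came first, ahead of the fibroblast cluster led by Ccl7 at 768 [739, 799] CPM and the fibroblast cluster led by Pi16 at 593 [559, 629] CPM, and no 2 of these intervals overlapped. In sham the Ccl7 cluster came first at 1459 [1427, 1492] CPM, and the Pi16 cluster at 1088 [1053, 1124] CPM overlapped with the lining. The background in erythroid-like cells was 9.28 CPM in DMM and 3.01 CPM in sham, and 1 cell held 45.1% of the UMIs of this gene there in DMM.

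Has2, the main synthase of chondrocytes and of developing limb cartilage, had another distribution. Its highest level was in Pi16 fibroblasts in both libraries, at 107 [93.0, 124] CPM in the DMM library and 209 [193, 225] CPM in the sham library. Chondrocyte-like cells held 45.0 [41.2, 49.1] CPM in the DMM library and 70.0 [66.0, 74.1] CPM in the sham library, and superficial zone cells held 56.9 [50.7, 63.6] CPM in the DMM library and 72.4 [66.2, 79.1] CPM in the sham library. In the DMM library the 7 clusters after Pi16, from superficial zone cells down to the Serpina1e cluster at 42.8 CPM, had intervals that overlapped from each cluster to the next. Lining-like cells, where Has1 was high, held only 5.76 CPM in DMM and 10.3 CPM in sham, above the 0.637 CPM in DMM and 0.815 CPM in sham of erythroid-like cells. The highest Has2 level in sham after the 2 fibroblast clusters was in the perivascular cluster led by Abcc9, at 118 [84.1, 160.3] CPM in sham, and 51.4 [29.9, 82.2] CPM in DMM. Has3 had 32 UMIs in the whole DMM library and 47 in the sham library, too few to order cell types or to compare groups. Among lining-like cells 0 of 828 DMM cells carried a Has3 UMI, which allows up to 0.320 CPM at the limit of 3 counts and 0.393 CPM by the exact Poisson interval.

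**Figure D1:**
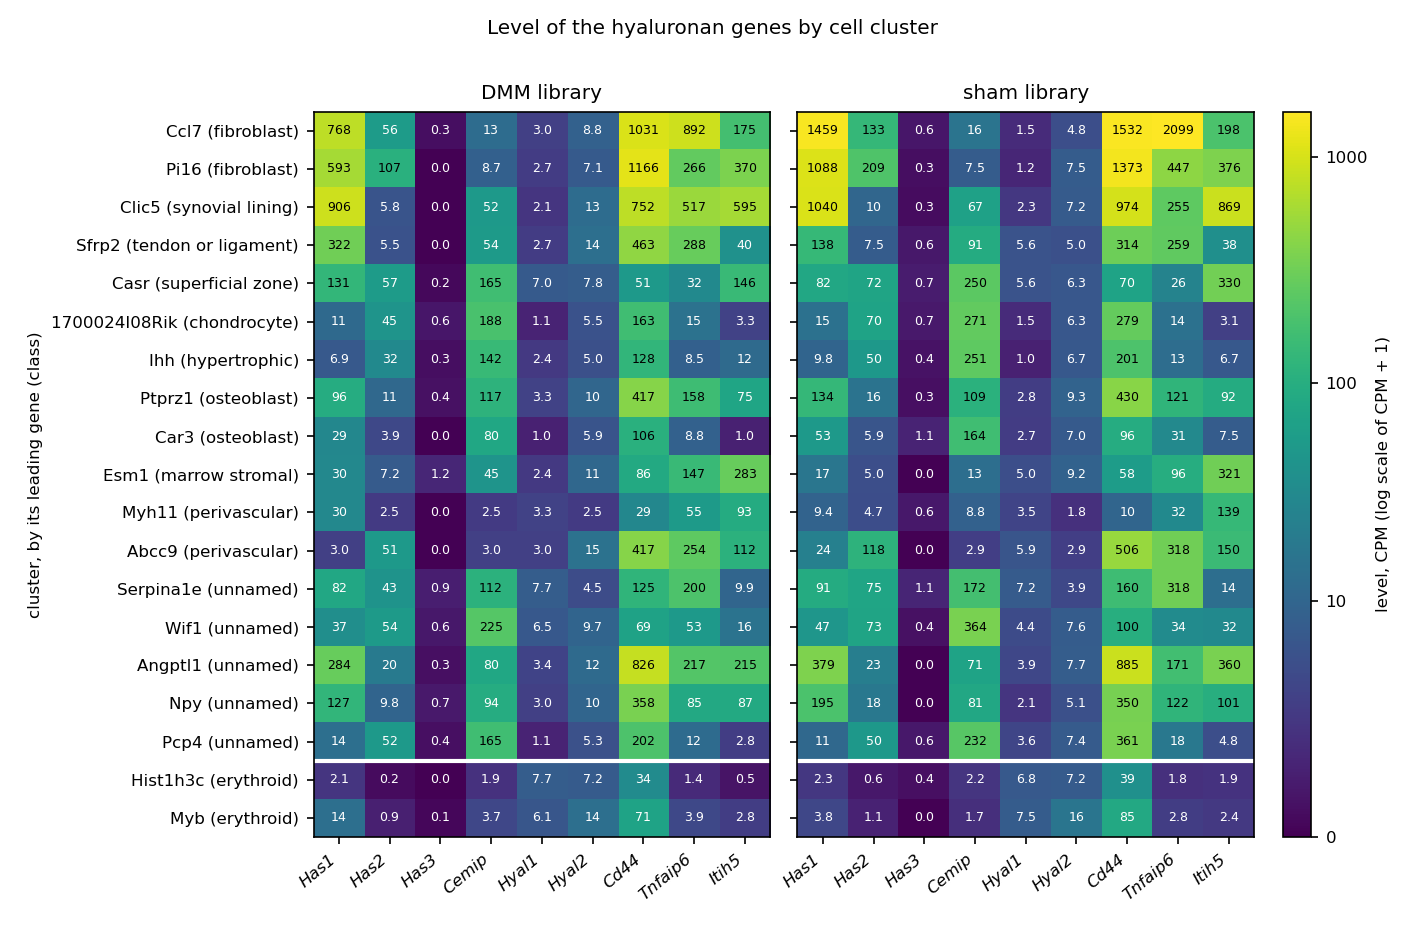
Level of each of the 9 genes in CPM (colour on a log scale, value printed in the cell) in the DMM library (left) and the sham library (right), for the 17 connective tissue clusters with at least 50 cells in both libraries and, under the white line, the 2 erythroid-like clusters. Rows carry the leading gene of the cluster and its class. Has1, Cd44, Tnfaip6 and Itih5 are brightest in the fibroblast and lining rows at the top, Cemip in the Wif1 and chondrocyte rows, and Has3, Hyal1 and Hyal2 stay dark in every row.

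Among the genes of breakdown, Cemip (a hyaluronan-binding protein needed for depolymerisation, also called KIAA1199 or HYBID) had its highest levels in an unnamed cluster and in chondrocytes. The unnamed cluster led by Wif1, Msmp and Frzb, the last a secreted Wnt inhibitor of articular cartilage, was highest in both libraries. It held 225 [212, 239] CPM in the DMM library and 364 [348, 380.3] CPM in the sham library. This cluster matched the superficial zone list best. With a minimum of 1000 genes per cell, a cluster led by Msmp, Wif1 and Chrdl2 was named superficial zone chondrocyte-like. The main chondrocyte cluster followed at 188 [180.1, 197] CPM in the DMM library and 271 [263, 279] CPM in the sham library, and in DMM its interval overlapped with that of the cluster led by Pcp4 at 165 [150.2, 180.5] CPM. Superficial zone cells held 165 CPM in DMM and 249.5 CPM in sham. Fibroblast-like cells, where Has2 was highest, held 11.3 CPM in DMM and 12.8 CPM in sham of Cemip, while erythroid-like cells held 3.00 CPM in DMM and 1.94 CPM in sham. In marrow stromal-like cells Cemip was 44.6 CPM in DMM and 13.4 CPM in sham, but 1 cell held 59.5% of its DMM UMIs.

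The lysosomal hyaluronidase Hyal1 and the membrane-anchored Hyal2 stayed low in every named class. Hyal1 was 7.04 CPM in DMM and 5.56 CPM in sham in superficial zone cells and 7.73 CPM in DMM and 7.18 CPM in sham in the Serpina1e cluster, and erythroid-like cells held 6.74 CPM in DMM and 7.15 CPM in sham. Hyal2 was 12.7 CPM in DMM and 7.18 CPM in sham in lining-like cells and 5.40 CPM in DMM and 5.80 CPM in sham in chondrocyte-like cells, and erythroid-like cells held 11.2 CPM in DMM and 11.6 CPM in sham. Over all connective tissue cells Hyal1 was 3.58 CPM in DMM and 3.05 CPM in sham, and Hyal2 8.23 CPM in DMM and 6.21 CPM in sham, below the erythroid-like level in both libraries, so erythroid-like cells give no background for either gene. In chondrocyte-like cells the 95% interval of Hyal1 was 0.612 to 1.97 CPM in DMM and 0.968 to 2.21 CPM in sham, below those of the Serpina1e cluster, at 7.73 [6.02, 9.76] CPM in DMM and 7.18 [5.33, 9.47] CPM in sham. A Hyal1 UMI was found in 3.59% of all DMM cells and 3.55% of all sham cells. Hyal1 (chromosome 9, 107576927 to 107581710, GRCm38, plus strand) overlaps Hyal3, which starts at 107580818 on the same strand, so that reads of both cannot be told apart in the overlap.

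Cd44, the main cell surface receptor, was detected in each of the 17 connective tissue clusters with at least 50 cells in both libraries. Fibroblast-like cells held 1079 [1051, 1108] CPM in the DMM library and 1471 [1446, 1497] CPM in the sham library, and lining-like cells 752 [734, 769] CPM in the DMM library and 974 [941, 1007] CPM in the sham library. The unnamed cluster led by Angptl1, Col3a1 and Fndc1 held 826 CPM in DMM and 885 CPM in sham. Chondrocyte-like cells were lower, at 167 [159, 175] CPM in the DMM library and 281 [273, 289.6] CPM in the sham library, and superficial zone cells lower again, at 51.3 [45.4, 57.7] CPM in the DMM library and 70.1 [63.9, 76.6] CPM in the sham library. Erythroid-like cells, whose precursors are known to carry CD44 and which therefore give no background for it, held 56.4 CPM in DMM and 61.1 CPM in sham. The perivascular cluster led by Myh11 was the lowest connective tissue cluster, at 29.0 CPM in DMM and 10.0 CPM in sham.

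Tnfaip6 and Itih5, both partners of the chain in the heavy chain system, had their highest levels in fibroblast and lining cells. They differed within these cells and were not limited to them. Tnfaip6 was highest in the Ccl7 fibroblast cluster in both libraries, at 892 [860.1, 925] CPM in the DMM library and 2099 [2061, 2138] CPM in the sham library. The second place was held in DMM by lining-like cells at 517 [502, 532] CPM, and in sham by Pi16 fibroblasts at 447 [424, 470.0] CPM. In sham the lining-like cells held rank 6 at 255 [238, 272] CPM, below the Serpina1e cluster at 318 [305, 332] CPM. Itih5, which codes for an inter-alpha-trypsin inhibitor heavy chain family protein, was highest in lining-like cells in both libraries, at 595 [579, 610.4] CPM in the DMM library and 869 [838, 900.4] CPM in the sham library. Pi16 fibroblasts came next at 369.6 CPM in DMM and 376 CPM in sham, where the Angptl1 cluster at 360.2 [335, 387] CPM overlapped with them in sham. Superficial zone cells held 146 CPM in DMM and 330.2 CPM in sham of Itih5, while chondrocyte-like cells held 3.01 CPM in DMM and 3.29 CPM in sham, close to the 1.91 CPM in DMM and 2.13 CPM in sham of erythroid-like cells. The Serpina1e cluster held 9.94 CPM in DMM and 13.5 CPM in sham. Marrow stromal-like cells held 283 [248, 322] CPM of Itih5 in DMM and 321 [292, 352] CPM in sham. Ccl7 fibroblasts held less of it, 175 CPM in DMM and 198 CPM in sham.

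The share of cells with at least 1 UMI was taken after each cell was thinned to 2000 UMIs, which left out 376 DMM and 399 sham cells with fewer. In DMM lining-like cells 68.7% [65.4, 71.8] carried Has1 and 34.4% [31.1, 37.7] carried Tnfaip6, and in sham lining-like cells 67.0% [61.5, 72.1] and 16.8% [12.9, 21.4] did. For Has1 the 2 lining shares had overlapping intervals. In superficial zone cells Itih5 was carried by 22.7% [19.6, 26.1] in DMM and 44.3% [41.0, 47.6] in sham, and without thinning by 49.5% and 72.6%. The thinned background in erythroid-like cells was 1.04% [0.448, 2.03] for Has1, 0.389% [0.0802, 1.13] for Tnfaip6 and 0.259% [0.0314, 0.933] for Itih5 in DMM, and 0.579% [0.233, 1.19], 0.579% [0.233, 1.19] and 0.993% [0.514, 1.73] in sham. Median depths were 10844 UMIs in DMM lining-like, 7087 in DMM superficial zone and 10499.5 in DMM erythroid-like cells, and 10230, 6882 and 9646.5 in the same sham cells. For Tnfaip6 in the lining and Itih5 in the superficial zone the share differed between the libraries in the direction of the CPM.

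Over the 37 class or cluster sums of both libraries (20 cell sets with at least 50 cells), the level pattern of Has1 on the log2(CPM + 1) scale was most like that of Tnfaip6 among the 9 genes (Pearson r = 0.81), followed by Itih5 (r = 0.75). Tnfaip6 and Cd44 had r = 0.70, Has2 and Cemip r = 0.62, and Has1 and Has2 only r = 0.25. These points share libraries and depth, and the values are descriptions. Of 12141 genes with at least 500 UMIs, Coro2b (r = 0.93) was most like Has1, Has2os (r = 0.87) most like Has2, Enpp1 (r = 0.94) most like Cemip, Npepps (r = 0.90) most like Cd44, Tmem43 (r = 0.90) most like Tnfaip6 and Igfbp5 (r = 0.92) most like Itih5. Has2os is an antisense transcript of the Has2 locus. The strand setting of the counting is not given, and whether reads of Has2 and Has2os were kept apart where they overlap was not tested.

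The promoters of Has1 and Tnfaip6 are shown because these 2 genes had the most alike level pattern. The sequences are RefSeq's (GRCm38.p6), which held 7 of the 9 genes (not Has2 and Has3), and run 5' to 3' on the strand of the gene, up to the first base that the GENCODE annotation places in the gene. Matches to the motifs searched are in capitals. The Has1 stretch is chr17:17855206-17855438 (minus strand, 233 bases) and the Tnfaip6 stretch is chr2:52037863-52038008 (plus strand, 146 bases).
Has1: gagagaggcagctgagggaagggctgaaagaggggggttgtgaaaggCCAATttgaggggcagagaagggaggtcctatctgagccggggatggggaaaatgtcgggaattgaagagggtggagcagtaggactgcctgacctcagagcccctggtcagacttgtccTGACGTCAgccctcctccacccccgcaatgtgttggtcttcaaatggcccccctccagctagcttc
Tnfaip6: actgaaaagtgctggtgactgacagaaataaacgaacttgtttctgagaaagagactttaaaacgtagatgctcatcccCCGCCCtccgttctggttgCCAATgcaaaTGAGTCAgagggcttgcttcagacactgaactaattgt
Over the 250 bases before RefSeq's start, Has1 had a CCAAT box (CCAAT) 203 bases and a cyclic AMP response element (TGACGTCA) 83 bases before the start. Tnfaip6 had a GC box (GGGCGG) at 171 bases, CCAAT boxes at 152 and 81 bases, the last inside the GENCODE gene and not printed, and an AP-1 site (TGACTCA) at 142 bases. Both strands were searched, also for the TATA box (TATAAA), the E-box (CACGTG), a C/EBP site (TTGCNNCAA), a STAT site (TTCCNNGAA) and an NF-kB site, none of which matched in these 2 genes; no matches overlapped. Of 32851 RefSeq promoters of the same length, 33.9% held a CCAAT box, 32.7% a GC box, 4.46% an AP-1 site and 1.55% a cyclic AMP response element. A match describes the letters and is no evidence of binding.

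Between the libraries, fibroblast-like cells of the DMM library held less RNA of Has1, Has2 and Tnfaip6. Has1 was 1.87-fold [1.80, 1.94] lower in DMM, Has2 2.18-fold [1.95, 2.45] lower and Tnfaip6 2.20-fold [2.12, 2.28] lower, from levels of 706 CPM in DMM and 1318 CPM in sham for Has1, 74.2 CPM in DMM and 162 CPM in sham for Has2 and 668 CPM in DMM and 1469 CPM in sham for Tnfaip6. Cd44 had a log2 ratio of DMM over sham of -0.45 [-0.49, -0.40], and Itih5 -0.12 [-0.22, -0.02]. Of the 7 genes with at least 50 UMIs in these cells, 3 were lower by 1.5-fold or more and 0 higher, where 7.33% of all 10503 genes were lower by that much and 5.73% higher. The median log2 ratio of the 7 was -0.45, and that of all genes -0.05. Both fibroblast clusters showed it: in Ccl7 cells the log2 ratios were -0.93 [-0.99, -0.86] for Has1, -1.26 [-1.50, -1.02] for Has2 and -1.23 [-1.29, -1.18] for Tnfaip6, and in Pi16 cells -0.88 [-0.97, -0.78], -0.96 [-1.19, -0.73] and -0.75 [-0.90, -0.60]. Each of the 3 stayed lower by 1.5-fold or more in all 12 alternative settings. Among the 808 DMM cells 549 were of the Ccl7 cluster, and among the 1182 sham cells 742.

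In synovial lining-like cells Tnfaip6 went the other way. It was 517 [502, 532] CPM in the DMM library and 255 [238, 272] CPM in the sham library, 2.03-fold [1.89, 2.18] higher in DMM. Hyal2 was 12.7 [10.5, 15.2] CPM in the DMM library and 7.18 [4.65, 10.6] CPM in the sham library, 1.77-fold [1.14, 2.84] higher, from 119 DMM and 25 sham UMIs, and its log2 ratio was 0.57, under the 1.5-fold mark, once the trend on gene length described below was removed. Has2 was lower, 5.76 CPM in DMM and 10.3 CPM in sham, with a log2 ratio of -0.84 [-1.48, -0.19]. Has1, the main synthase of these cells, had a log2 ratio of -0.20 [-0.25, -0.14], Cd44 -0.37 [-0.43, -0.31] and Itih5 -0.55 [-0.61, -0.48]. Of the 7 genes with at least 50 UMIs there, 2 were higher by 1.5-fold or more, where 6.48% of all 10316 genes were, and 1 lower, where 13.8% of all genes were. The median of the 7 was -0.36, and that of all genes -0.11. In sham 1 cell held 10.5% of the sham UMIs of Tnfaip6, and with the highest cell in DMM and in sham left out the log2 ratio was 1.14.

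**Figure D2:**
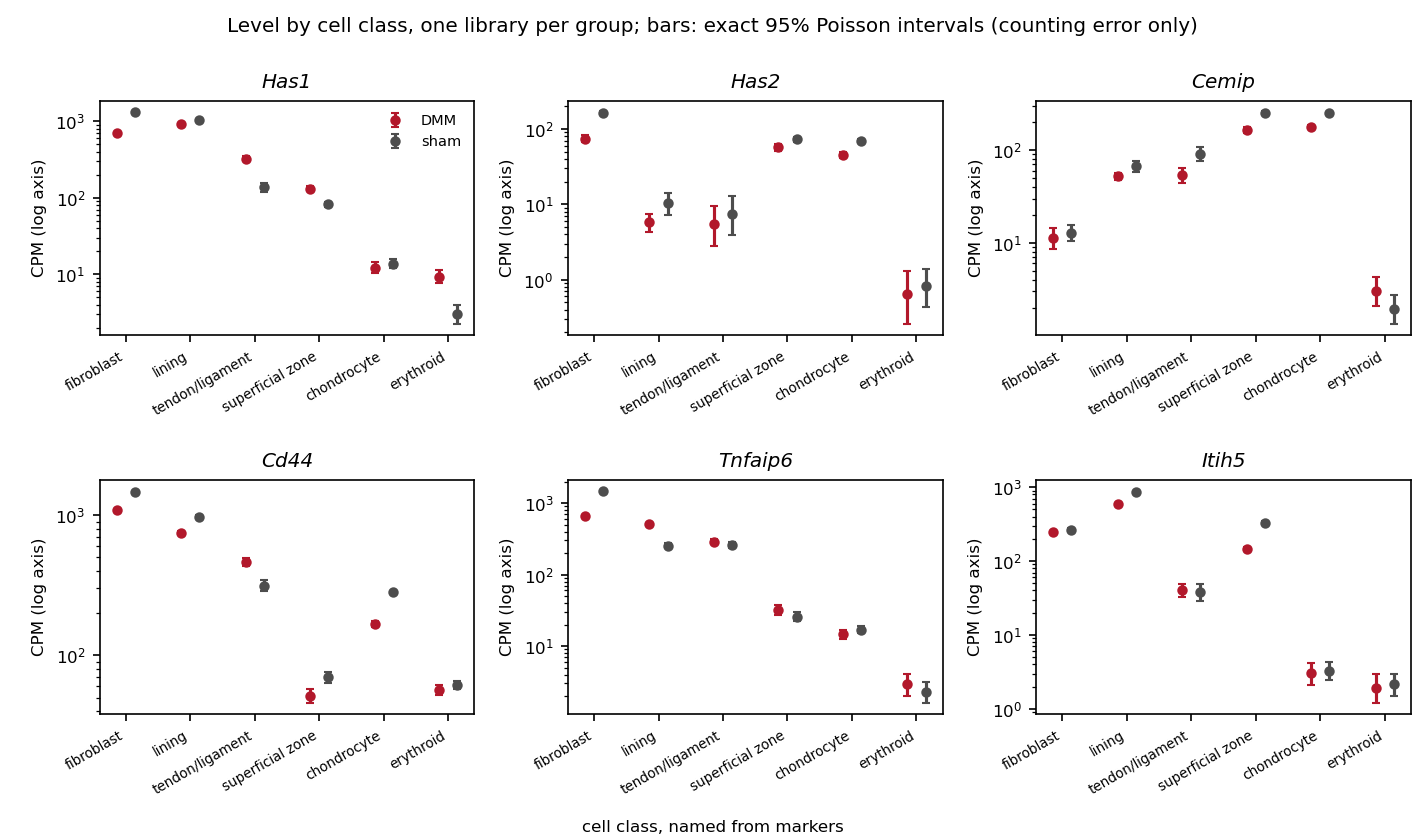
Level in CPM (log axis) of the 6 genes with the most UMIs in 6 cell classes, DMM (red, left) beside sham (grey, right), with exact 95% Poisson intervals of counting error and 1 library per group. The DMM point lies below the sham point for Has1, Has2 and Tnfaip6 in fibroblasts and for Itih5 in the superficial zone, and above it for Tnfaip6 in the lining and Has1 in tendon or ligament and superficial zone cells.

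Superficial zone chondrocyte-like cells had more Has1 and less Itih5 and Cemip in the DMM library. Has1 was 131 [121, 141] CPM in the DMM library and 82.0 [75.4, 89.1] CPM in the sham library, 1.59-fold [1.42, 1.78] higher. Itih5 was 146 [136, 156] CPM in the DMM library and 330.2 [317, 344] CPM in the sham library, 2.26-fold [2.09, 2.46] lower, and Cemip was 165 [154, 176] CPM in the DMM library and 249.5 [238, 262] CPM in the sham library, 1.51-fold [1.40, 1.64] lower. Of the 8 genes with at least 50 UMIs there, 1 was higher by 1.5-fold or more, where 3.30% of all 9838 genes were, and 2 lower, where 17.3% of all genes were. The median of the 8 was -0.02, and that of all genes -0.19. Has2 had a log2 ratio of -0.35 [-0.56, -0.14] and Cd44 -0.45 [-0.67, -0.23]. The Cd44 log2 ratio was -0.004 with the gene length trend removed and 0.01 with doublets kept. With doublets kept the class also took in a cluster led by Serpina3n, Postn and Serpina1e. The Has1 log2 ratio lay between 0.20 and 0.85 over 12 alternatives and past 1.5-fold in 7 of them. The lowest was at a Leiden resolution of 2.0, where the class held 986 DMM and 925 sham cells of clusters led by Chrdl2, Hmga2 and Casr. The Cemip log2 ratio was -0.14 with the gene length trend removed, and that of Itih5 -0.70.

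Chondrocyte-like cells of the DMM library had less Has2 and Cd44. Has2 was 1.55-fold [1.40, 1.73] lower in DMM and Cd44 1.69-fold [1.60, 1.78] lower. Cemip had a log2 ratio of -0.51 [-0.59, -0.43], just inside the 1.5-fold mark, and Has1 -0.17 [-0.49, 0.14]. Each of the 7 genes with at least 50 UMIs was lower in DMM by CPM, 2 of them by 1.5-fold or more and 0 higher by that much, where 9.81% of all 12144 genes were lower and 1.75% higher. The median of the 7 was -0.21, and that of all genes -0.16. With the gene length trend removed the log2 ratio was -0.49 for Has2 and -0.43 for Cd44, both under the 1.5-fold mark. For 4 of the 7 the direction depended on the setting. Itih5 stayed lower in only 4 of 12 alternatives and reached 0.52 with doublets kept, and Hyal2 stayed lower in 9 of 12 and reached 0.95 with cells thinned to 2000 UMIs. Has1 was 0.37 with doublets kept, and Tnfaip6 was 0.07 with clusters weighted equally. With median-of-ratios scaling Hyal2 was 0.04 and Itih5 0.02. Hypertrophic chondrocyte-like cells gave a log2 ratio of -0.61 [-0.86, -0.37] for Has2, -0.66 [-0.78, -0.54] for Cd44 and -0.83 [-0.94, -0.72] for Cemip. Of all 10359 genes in these cells 13.3% were lower and 2.21% higher by 1.5-fold or more, and genes of 100 kb or more had a median of -0.43. The hypertrophic values were not recomputed under the alternatives. Itih5 had 0.81 [0.30, 1.33] there, with 35.6% of its DMM UMIs and 34.4% of its sham UMIs in 1 cell each.

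In the Serpina1e cluster Has2 was 1.75-fold [1.53, 2.00] lower in DMM. Its log2 ratio was -0.81, that of Tnfaip6 -0.67 [-0.76, -0.58] and that of Cemip -0.62 [-0.74, -0.50], from 42.8 CPM in DMM and 74.9 CPM in sham for Has2, 199.8 CPM in DMM and 318 CPM in sham for Tnfaip6 and 112 CPM in DMM and 172 CPM in sham for Cemip. These were the 3 of 8 genes with at least 50 UMIs that were lower by 1.5-fold or more, where 9.98% of all 10569 genes were, and 0 were higher, where 3.79% of all genes were. The median of the 8 was -0.40, and that of all genes -0.09. At a Leiden resolution of 2.0 the cluster led by Serpina1e held only 618 DMM and 434 sham cells, and the Tnfaip6 log2 ratio in them was 0.13. The Cemip log2 ratio was -0.28 with the gene length trend removed, and it was past 1.5-fold in 8 of 12 alternatives. Tendon or ligament-like cells had more Has1 in DMM, 322 [299, 347] CPM in the DMM library and 138 [120.2, 157] CPM in the sham library, 2.34-fold [2.01, 2.73] higher. They had more Cd44, with a log2 ratio of 0.56 [0.40, 0.72], and less Cemip, with -0.76 [-1.12, -0.40]. Of all 7442 genes in these cells 4.58% were higher and 12.7% lower by 1.5-fold or more. Genes of 100 kb or more had a median log2 ratio of -0.31 there. The tendon or ligament-like values were not recomputed under the alternatives.

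**Figure D3:**
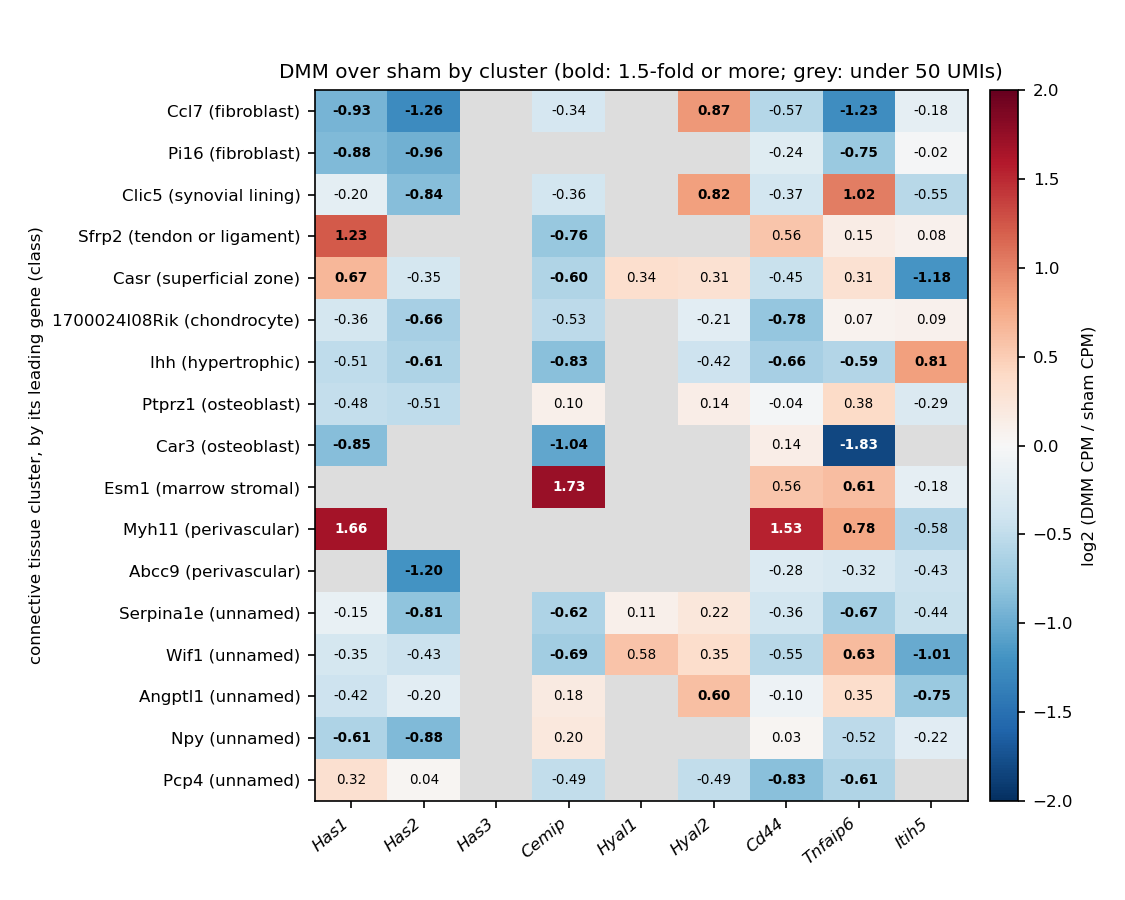
Log2 ratio of DMM over sham CPM for each of the 9 genes in the 17 connective tissue clusters with at least 50 cells in both libraries; blue is lower in DMM, red is higher in DMM, bold marks 1.5-fold or more and grey fewer than 50 UMIs over both libraries. The Has2 column is blue in 12 of 13 filled cells, while the Has1 and Tnfaip6 columns hold both colours.

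Over clusters, Has2 was lower in DMM in 12 of the 13 connective tissue clusters with at least 50 of its UMIs, by 1.5-fold or more in 8, and also in 12 of 13 after the median log2 ratio of all genes in the cluster was subtracted; the exception was the Pcp4 cluster, at 0.04 [-0.26, 0.34]. Cemip was lower in 10 of 14 clusters, also after the median was subtracted, and Itih5 in 12 of 15, and in 11 of 15 after it. Both genes span over 100 kb, and genes of 100 kb or more had a median log2 ratio between -0.47 and -0.22 in each of the 17 clusters. Cd44 was lower in 12 of 17, and in 10 of 17 after the median was subtracted. Has1 was lower in 11 of 15, and its 3 ratios of 1.5-fold or more upward were in Myh11 perivascular cells (1.66 [0.77, 2.61], with 27.8% of 36 DMM UMIs in 1 cell), tendon or ligament-like and superficial zone cells. Tnfaip6 was higher in 9 and lower in 8 of 17, and the clusters ranged from -1.83 [-3.03, -0.81] in Car3 osteoblast-like cells, where 1 cell held 44.4% of the DMM UMIs, to 1.02 [0.92, 1.13] in the lining. Hyal2 was higher in 7 of 10.

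Summed over all connective tissue cells, Has2 had 33.1 [31.8, 34.4] CPM in the DMM library and 64.7 [62.9, 66.5] CPM in the sham library, 1.95-fold [1.86, 2.05] lower in DMM, and Cemip 115 [113, 117] CPM in the DMM library and 183 [180.0, 186] CPM in the sham library, 1.59-fold [1.55, 1.64] lower. These were the 2 of 9 genes that were lower by 1.5-fold or more, where 15.3% of all 16566 genes were, and 0 were higher, where 4.20% of all genes were. With the clusters weighted equally the log2 ratio was -0.65 for Has2 and -0.25 for Cemip. Has1 had a log2 ratio of -0.11 [-0.14, -0.08] in these sums, 0.06 with median-of-ratios scaling. Median-of-ratios scaling added 0.18 to every log2 ratio in superficial zone, 0.15 in chondrocyte-like, 0.14 in lining-like, 0.03 in fibroblast-like, 0.17 in all connective tissue cells and 0.11 in the Serpina1e cluster.

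The cells that held the RNA differed between the libraries, and so did the number of cells captured of each kind. Ccl7 fibroblasts held 20.4% of the Tnfaip6 UMIs of the DMM library, against 60.9% in sham, and lining-like cells 33.5% in DMM, against 4.76% in sham. For Has1, lining-like cells held 48.0% in DMM and 19.0% in sham, and Ccl7 fibroblasts 14.3% in DMM and 41.4% in sham. For Itih5 the lining held 53.1% in DMM and 29.8% in sham, although its CPM within the lining was lower in DMM. Lining-like cells numbered 828 in DMM and 323 in sham, and Ccl7 fibroblasts 549 in DMM and 742 in sham. Whether dissection and digestion released these cells equally in both groups was not tested. Chondrocyte and hypertrophic chondrocyte-like cells held 32.7% of the Cemip UMIs in DMM and 46.3% in sham.

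**Figure D4:**
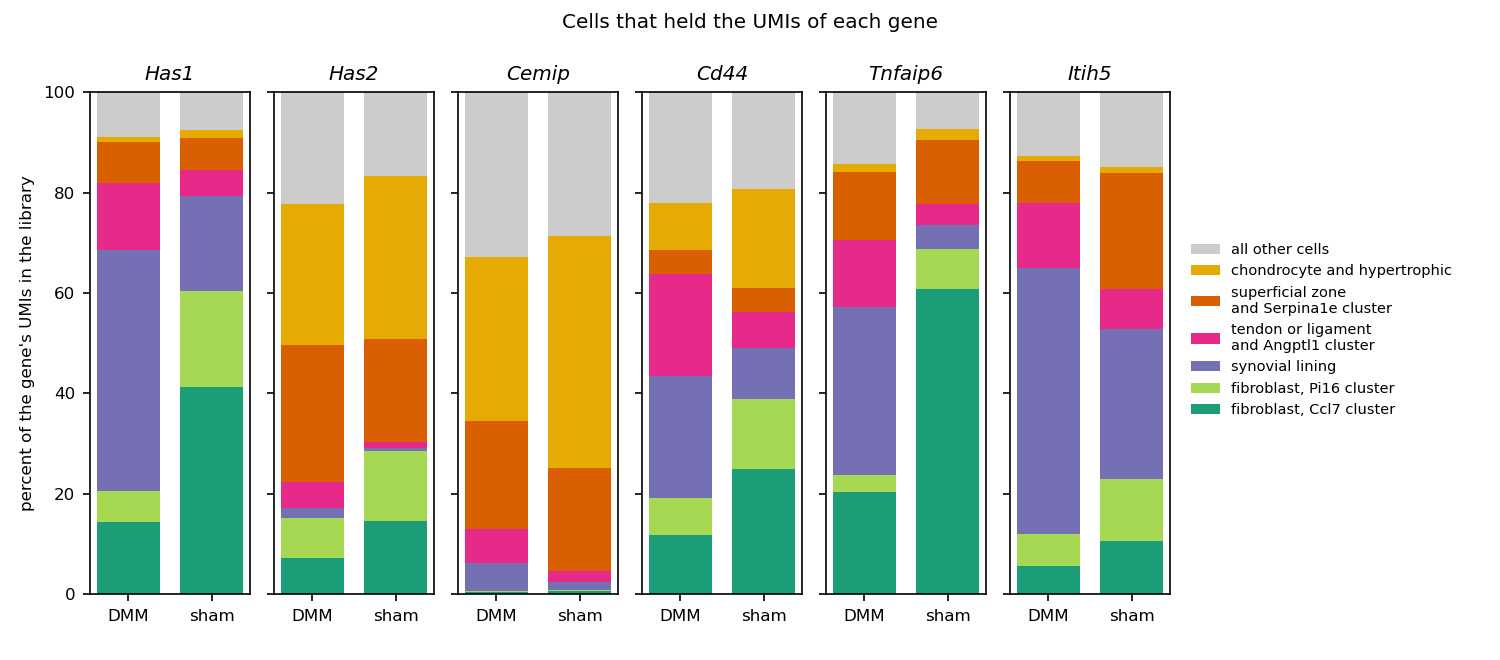
Percent of the UMIs of each gene in a library that lay in each set of cells, DMM bar left of the sham bar. For Tnfaip6 the Ccl7 fibroblast segment (dark green, at the bottom) is 20.4% in DMM and 60.9% in sham, and for Has1 the lining segment (purple) is 48.0% in DMM and 19.0% in sham; the bars also carry the number of cells captured in each set.

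The 39 other genes of the pathway were followed by role. In fibroblast-like cells 4 of the 19 genes with at least 50 UMIs were lower in DMM by 1.5-fold or more and 0 higher, where 7.33% of all genes were lower and 5.73% higher. Of these, 3 supply the sugar precursors: Gfpt2, an entry enzyme of the hexosamine pathway (743 CPM in DMM and 1461 CPM in sham, 1.97-fold [1.90, 2.04] lower), Uap1, which makes UDP-N-acetylglucosamine (1008 CPM in DMM and 1591 CPM in sham, 1.58-fold [1.53, 1.63] lower), and Ugdh, which makes UDP-glucuronic acid (1324 CPM in DMM and 2015 CPM in sham, 1.52-fold [1.48, 1.57] lower). The last was Ptx3, a pentraxin that crosslinks heavy chains in hyaluronan matrices (63.6 CPM in DMM and 141 CPM in sham, 2.21-fold [1.96, 2.51] lower). Over the 8 genes of sugar supply the median log2 ratio in these cells was -0.28, against -0.05 for all genes. In lining-like cells 1 of 18 such genes was higher, Uap1l1, which resembles Uap1, with a log2 ratio of 0.65 [0.38, 0.93], and 3 were lower, Gfpt2 (-0.68 [-0.74, -0.62]), the aggrecan gene Acan (-0.81 [-1.11, -0.49]) and the versican gene Vcan (-0.99 [-1.21, -0.77]). Of all genes in the lining 6.48% were higher and 13.8% lower by that much. Uap1l1 spans 5.79 kb, and genes under 10 kb had a median log2 ratio of 0.24 in the lining. Gfpt2, Acan and Vcan span 44.4, 61.6 and 87.2 kb, and genes of 30 to 100 kb had -0.27 there. In fibroblast-like cells genes of 30 to 100 kb, the range of Gfpt2 and Uap1 (33.0 kb), had a median of -0.17. Genes of 10 to 30 kb, the range of Ugdh (22.7 kb), had 0.04 in them, and genes under 10 kb, the range of Ptx3 (5.90 kb), had 0.24. None of the 39 genes was recomputed with the gene length trend removed or under the other alternatives.

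In cartilage cells the precursor genes stayed inside 1.5-fold. Superficial zone cells had 2 of 21 such genes lower and 0 higher, the receptor Lyve1 (-0.72 [-1.31, -0.14]) and Susd5, a link-domain gene (203 CPM in DMM and 341 CPM in sham, -0.75 [-0.85, -0.65]), where 17.3% of all genes were lower and 3.30% higher. Chondrocyte-like cells had 4 of 22 lower and 0 higher, namely Susd5 (249 CPM in DMM and 461 CPM in sham, -0.89 [-0.95, -0.83]), Vcan (-0.93 [-1.42, -0.46]), Ptx3 (-0.91 [-1.51, -0.34]) and Hmmr (-1.10 [-1.44, -0.77]), a hyaluronan receptor that also works at the mitotic spindle. Of all genes in these cells 9.81% were lower and 1.75% higher. Susd5, Vcan and Hmmr span 41.6, 87.2 and 32.0 kb, and Lyve1 and Ptx3 span 12.6 and 5.90 kb. Genes of 30 to 100 kb had a median log2 ratio of -0.34 in superficial zone and -0.27 in chondrocyte-like cells. The chondrocyte cluster led by Cep55, a gene of cell division, held 46 DMM and 75 sham cells, and its part in the Hmmr value was not tested. The aggrecan gene Acan, whose product is bound to hyaluronan in cartilage, had a log2 ratio of -0.06 [-0.07, -0.04] in chondrocyte-like cells, and the link protein gene Hapln1 -0.22 [-0.23, -0.20]. Over all connective tissue cells 2 of 28 such genes were higher and 8 lower, where 4.20% of all genes were higher and 15.3% lower. The 8 lower were Gfpt2, Hmmr, Vcan, Hapln1, Hapln3, Susd5, Itih4 and Ptx3, and the 2 higher were Uap1l1 and Hexa. Hexa, a lysosomal enzyme that trims hyaluronan fragments, was at 134 CPM in DMM and 85.8 CPM in sham in these sums. Its log2 ratio was 0.64 [0.60, 0.69] there and 0.53 [0.42, 0.64] in the lining. It was inside 1.5-fold in superficial zone, chondrocyte-like, lining-like and fibroblast-like cells. The list held 6 other hyaluronidase genes. For Cemip2 (also called Tmem2) the log2 ratio was -0.41 in superficial zone, -0.13 in chondrocyte-like, -0.01 in lining-like and -0.41 in fibroblast-like cells, each inside 1.5-fold. Of the other 5, Hyal3, Hyal4, Hyal5, Hyal6 and Spam1, only Hyal3 reached 50 UMIs over all connective tissue cells, and none did within a class.

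The ratio of DMM to sham was lower for genes of greater length on the genome, over all genes, and several of the genes described here are long. Genes under 10 kb had a median log2 ratio of 0.18 in superficial zone, 0.11 in chondrocyte-like, 0.24 in lining-like and 0.24 in fibroblast-like cells, and genes of 100 kb or more had -0.47, -0.37, -0.45 and -0.26 in the same cells. Cemip spans 154 kb, Itih5 103 kb and Cd44 90.5 kb, while Has2 spans 28.9 kb, Tnfaip6 18.7 kb, Has3 14.3 kb, Has1 11.9 kb, Hyal2 4.84 kb and Hyal1 4.78 kb. With the median log2 ratio of the 500 genes nearest in length subtracted, an adjustment chosen after the trend was seen, Cemip had -0.17 and Cd44 -0.43 in chondrocyte-like cells, and Cemip had 0.07, Cd44 0.03 and Itih5 -0.12 in lining-like cells. After the same subtraction Has1, Has2 and Tnfaip6 stayed at -1.03, -1.10 and -1.13 in fibroblast-like cells, Tnfaip6 at 1.05 in lining-like cells and Itih5 at -0.70 in superficial zone cells. Whether reads in introns were counted is not given in the sources used here, and its part in the length trend was not tested.

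**Figure D5:**
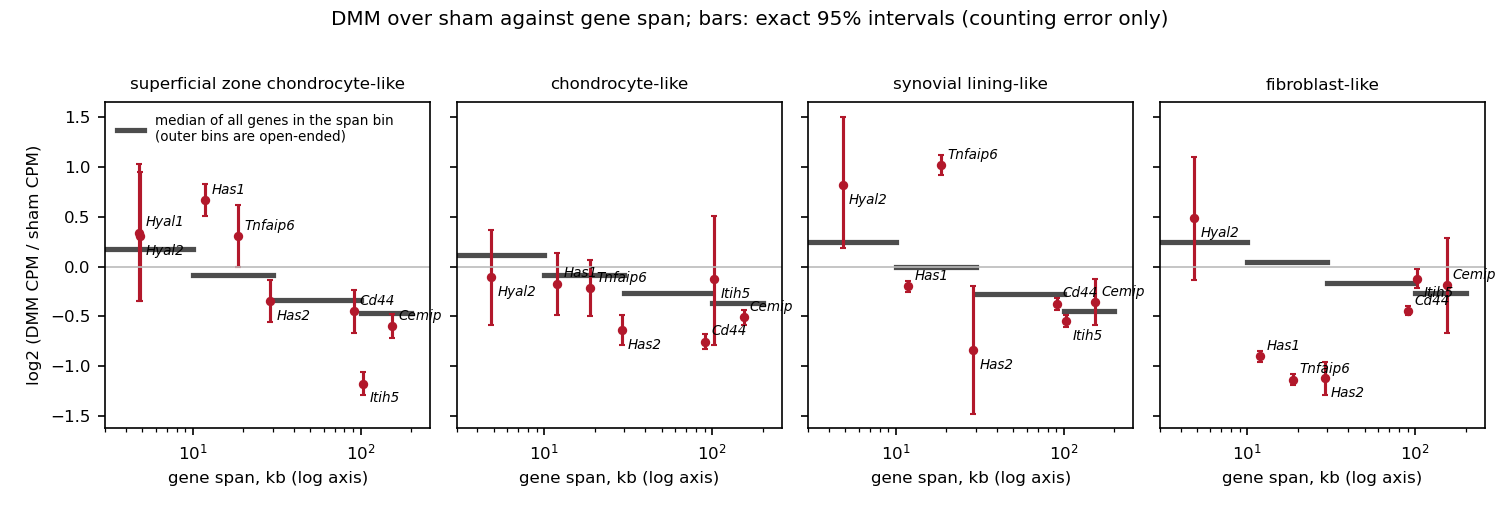
Log2 ratio of DMM over sham CPM against gene span in kb (log axis) in 4 cell classes; red points are those of the 9 genes with at least 50 UMIs, bars are exact 95% intervals of counting error, and grey steps are the median of all genes in a span bin. The grey steps go down from short to long genes in all 4 classes, and Has1, Has2 and Tnfaip6 in fibroblast-like cells and Itih5 in superficial zone cells lie well below them.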

How the data were processed

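Cells of WT mouse knee joint cartilage were measured in 2 single-cell libraries, 1 DMM and 1 sham, each pooled from 3 mice. The authors deposited UMI counts per gene and cell barcode, made with Cell Ranger 7.1.0 per the file headers; the submitters' processing notes name Cell Ranger 3.0.1, Seurat, STAR, HTSeq, DESeq2 and mm10. The libraries held 97346999 UMIs in 11076 DMM barcodes and 106799078 UMIs in 11362 sham barcodes. A bulk table with 6 columns that match no sample's labels was not used.

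Cells needed 500 detected genes and no more than 10% of UMIs from mitochondrial genes. Scrublet called 360 DMM and 463 sham doublets, which were removed. Clusters came from scanpy 1.11.5 (2000 variable genes, 30 principal components, 15 neighbours, Leiden resolution 1.0). A cluster was named from marker lists, with the scoring rule chosen after seeing the data. The members and lists were chosen with earlier results of these data known. The named genes are all 9 genes, 39 pathway genes listed by role, and genes most alike in level.

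Counts were summed per class. Levels are CPM with exact 95% Poisson intervals, shares have Clopper-Pearson intervals and ratios of DMM over sham exact conditional binomial intervals (scipy 1.17.1), which cover counting error only. A gene was counted as past the fold at 1.5-fold with at least 50 UMIs over both libraries. The intervals were run on simulated Poisson counts, the model they assume. That run could not show how they hold where 1 cell carries many of the UMIs. Alternatives covered filters, doublets, clustering, scaling, thinning, the top cell, the UMI minimum, the fold and gene length.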

Additional observations from a re-analysis of the deposited data

Results flagged for a closer look

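The log2 ratio of DMM over sham went opposite ways in different cells for 2 of the genes. Has1 had a log2 ratio of 0.67 in superficial zone chondrocyte-like cells and -0.90 in fibroblast-like cells. Tnfaip6 had 1.02 in synovial lining-like cells, against -1.14 in fibroblast-like cells and -0.67 in the cluster led by Serpina1e. Each ratio compares 1 DMM library with 1 sham library, so the difference between the cell types was not tested.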

How the results depend on the processing

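With 1 library per group no library could be left out. No paired analysis was possible because each group holds 1 library. Of the ratios recomputed under the alternatives, 454 stayed within their counting interval, 96 moved outside it and 1 that had been past 1.5-fold reversed: Tnfaip6 in the cluster led by Serpina1e had a log2 ratio of 0.13 at a Leiden resolution of 2.0. The number of genes past the fold was 3 in superficial zone, 2 in chondrocyte-like, 3 in lining-like, 3 in fibroblast-like and 2 in all connective tissue cells. With a laxer fold, below 1.5, it was 6, 6, 5 and 5 in superficial zone, lining-like, fibroblast-like and all connective tissue cells. With a fold of 2 it was 1 in superficial zone, 0 in chondrocyte-like, 1 in lining-like and 0 in all connective tissue cells. In chondrocyte-like cells it was 1 with median-of-ratios scaling, 4 with cells thinned to 2000 UMIs and 0 with the gene length trend removed, an alternative chosen after seeing the data. In all connective tissue cells it was 1 under each of these 3 settings and 1 with clusters weighted equally. It was 1 in lining-like cells with a minimum of 200 UMIs, 5 in fibroblast-like cells with a minimum of 1000 genes and 6 there at a Leiden resolution of 0.5. The alternatives on filters, doublets and clustering also changed which cells a class held. At a Leiden resolution of 2.0 the cluster led by Serpina1e held 618 DMM and 434 sham cells, against 972 and 671. Fibroblast-like cells numbered 1695 DMM and 1510 sham at a resolution of 0.5, and 1366 and 1322 with a minimum of 1000 genes. Apart from the settings that act on the fold, the UMI minimum or gene length by construction, the cause was not tested. Depth limits Has3, Hyal1 and Hyal2 most.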
